A study of Mus musculus with 6 samples.

Results

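The EGF family ligands and ErbB receptors were followed as 10 genes, the ligands Hbegf, Areg, Ereg, Btc, Tgfa and Nrg1 and the receptors Egfr, Erbb2, Erbb3 and Erbb4, among 55401 gene IDs. The genes were taken by symbol as members of the family, and Hbegf was chosen by its lower counts in mild cold in these same libraries, so its values are given as a description with no test. All 10 were in the table, and 9 passed the expression filter and stood among the 16757 genes tested. Areg did not pass. The hearts came from mice with myocardial infarction, an injury in which heart muscle dies when a coronary artery is blocked. Of the 6 RNA-seq libraries, 3 came from infarcted mice kept in mild cold, at 16 °C for 7 days, and 3 from infarcted mice kept at room temperature, at 22 °C. Every animal had an infarct, so no uninjured heart stands behind any value, and the labels do not state strain, sex, age or the time after infarction. Library totals lay between 41619023 and 65285901 counts, and mitochondrially encoded genes took 34.4 to 41% of them in mild cold and 26.2 to 31.6% at room temperature.

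Ligands of this family are made as membrane-anchored precursors and are released by metalloproteases of the ADAM family. Released EGF-type ligands such as HB-EGF, epiregulin, betacellulin and TGF-alpha bind the EGF receptor, and HB-EGF, epiregulin and betacellulin also bind ERBB4, while neuregulin-1 binds ERBB3 and ERBB4. ERBB2 binds no ligand and works as the partner of the other receptors, and ERBB3 signals mainly through its partner's kinase. In the heart, neuregulin from the endothelium acting on ERBB4 and ERBB2 of cardiomyocytes is needed for heart formation and for upkeep of the adult muscle.

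The labels name the tissue as whole heart, but the library room temperature 1 stood apart from the other 5. It held 28312 counts of the atrial light chain Myl7, 32000 of the airway secretory gene Scgb1a1 and 8688 of Ucp1, the uncoupling protein of brown fat. In the other 5 libraries these 3 genes had at most 18, 102 and 2 counts. So low a level of Myl7 in those 5 goes against a label that includes the atria. Summed markers of atrial myocytes stood at 4920 CPM in room temperature 1 against 146 to 358 CPM in mild cold and 607 to 735 CPM in the other room temperature libraries, and summed epithelial markers at 736 CPM against 1.47 to 4.06 CPM in the other 5. CPM is the count relative to the library total, adjusted with TMM factors (trimmed mean of M-values). Where leaving this library out turned a direction or moved a value by over 1.5 times, the value without it is given as well, for shares and levels per length as an alternative chosen after seeing the data.

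Without a test, the ligand Hbegf was lower in mild cold by a factor of 0.503 at even levels in each group, and of the other 8 tested members the clearest differences were in the ligand Ereg and the receptor Egfr. Ereg, the gene of epiregulin, stood at 0.415-fold and Egfr at 0.674-fold of their room temperature levels, and in both genes every mild cold library lay below every room temperature library. Nrg1 had the largest difference, 0.213-fold, with overlap between the groups. Erbb2, Erbb3 and Erbb4 and the ligands Btc and Tgfa had an unadjusted edgeR p above 0.05. Of the 8, 0 passed edgeR's adjusted p of 0.05, where 0% of all 16757 genes did, and 0 passed without room temperature 1, where 0.0116% of 17231 genes did. The DESeq2 Wald test called 3 of the 8 (Ereg, Nrg1 and Egfr), all lower in mild cold, where it called 4.83% of 15715 genes in that direction. At an unadjusted p under 0.05, 3 of the 8 were lower in mild cold (Ereg, Nrg1 and Egfr) and 0 higher, against 10.6% lower and 9.11% higher over all tested genes. Without room temperature 1 the same 3 were lower and 0 higher, against 8.43% lower and 6.8% higher. The groups did not overlap, with mild cold lower, in 2 of the 8, against 13.1% of all tested genes. With so few members these counts do not set the family apart from the other genes. The log2 fold change was negative in 7 of the 8, against 52.3% of all tested genes, with a median of -0.51 against -0.02. Without room temperature 1 it was negative in 5 of the 8, with a median of -0.22, since Btc and Erbb4 turned positive beside Erbb3. Since the labels give replicates a number but no animal, each p-value rests on the spread between libraries, which may be technical. Below, hearts 1 to 3 of a group stand for its libraries 1 to 3. In bulk hearts, fewer cells of a type and less RNA per cell cannot be told apart.

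**Figure D1:**
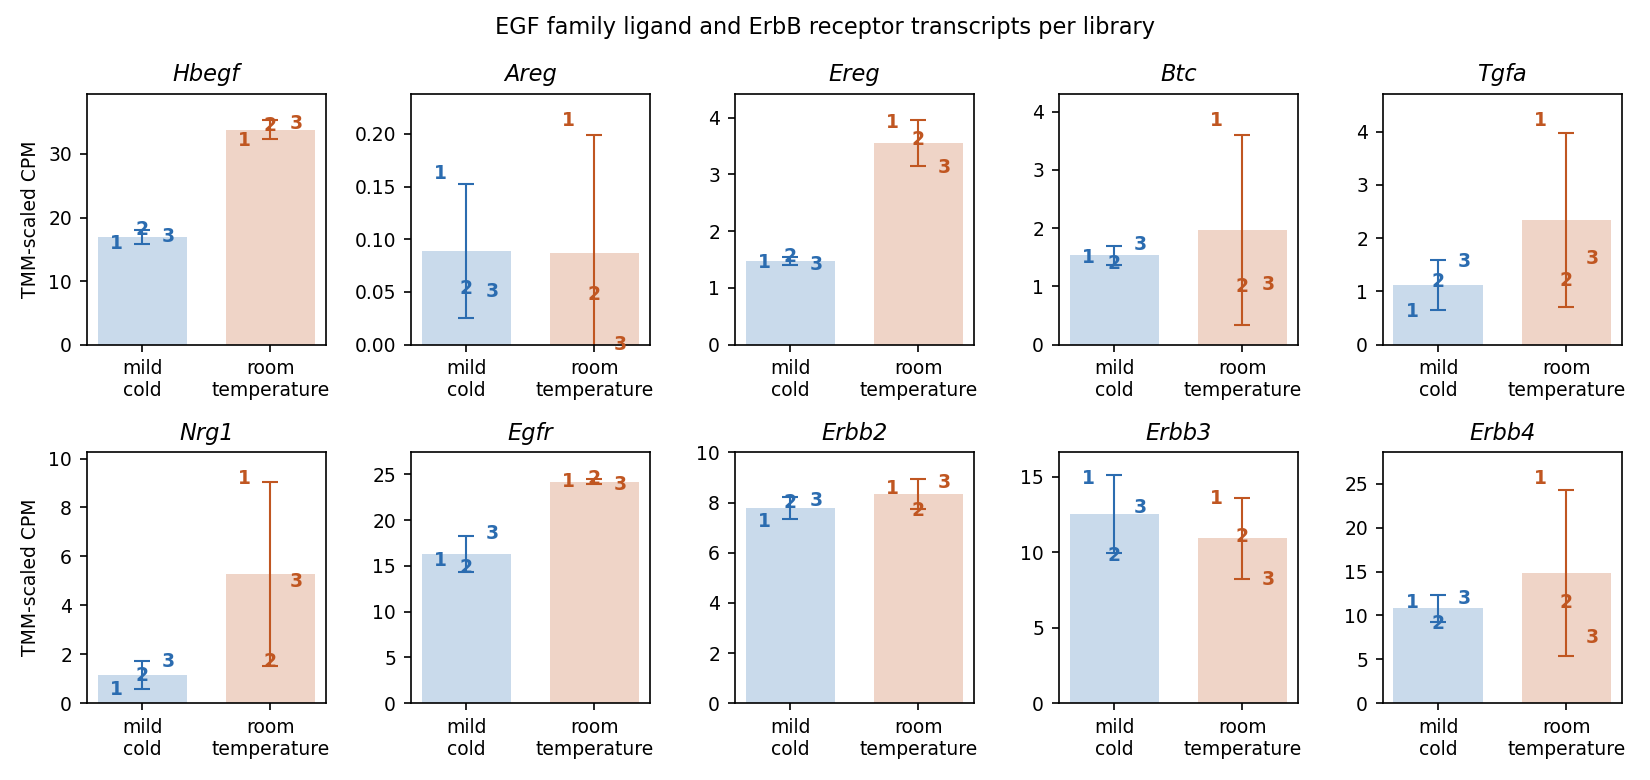
TMM-scaled CPM of the 10 genes in mild cold (blue, left) and at room temperature (orange, right). Numbers mark the replicate of each library, bars the mean and whiskers the SD (n = 3 per group), drawn down to 0 where the SD is larger than the mean. Hbegf, Ereg and Egfr have no overlap between the groups. Btc, Tgfa, Nrg1, Erbb4 and, by a small margin, Ereg are highest in room temperature 1.

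Hbegf encodes heparin-binding EGF-like growth factor, a ligand made by macrophages, endothelium and muscle among others. It measured 15.9, 18.1 and 17.0 CPM in the mild cold hearts 1 to 3, against 32.1, 34.5 and 34.8 CPM in the room temperature hearts 1 to 3. The spread within each group was small, with a coefficient of variation of 6.51% in mild cold and 4.38% at room temperature, and room temperature 1 was the lowest of its group. The log2 fold change was -0.99 (SE 0.09), and -1.03 without room temperature 1. These are the values that led to its choice, so the count of genes without overlap does not include it. The 5 genes with the most similar log2(CPM + 1) profile over the 6 libraries, among genes with a mean of at least 2 CPM, were Prkd3 (Pearson r = 0.995), Med13l (0.994), Rab23 (0.994), Sertad4 (0.994) and Slc2a10 (0.993). All 5 were lower in mild cold, with log2 fold changes from -0.27 for Prkd3 to -1.04 for Sertad4. Each r is a description over 6 libraries that share the split into 2 groups.

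Ereg, Areg and Btc are neighbours on chromosome 5, where RefSeq lists the protein-coding genes in the order Epgn, Ereg, Areg and Btc, and epiregulin, amphiregulin, betacellulin and epigen are all EGF-type ligands. Ereg had 89, 58 and 56 counts in the mild cold hearts 1 to 3, against 184, 151 and 230 counts in the room temperature hearts 1 to 3. That is 1.45, 1.56 and 1.41 CPM in mild cold against 3.91, 3.62 and 3.13 CPM at room temperature. The mild cold libraries lay close together, and all of them were well below the lowest room temperature library. For Ereg the log2 fold change was -1.27 (SE 0.21, edgeR adjusted p = 0.0878), with room temperature 1 left out -1.20 (adjusted p = 0.123). Ereg passed with the DESeq2 Wald test (adjusted p = 6.17e-05) and with scaling to library totals only (edgeR adjusted p = 0.0371), and over all alternatives its adjusted p ran from 6.17e-05 to 0.327. A share of 3.4% of its exon bases overlaps the non-coding gene Gm19610.

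Its neighbour Areg, which encodes amphiregulin, was close to the detection limit. It had 10, 2 and 2 counts in the mild cold hearts 1 to 3, against 10, 2 and 0 counts in the room temperature hearts 1 to 3. A count of 0 in room temperature 3 allows up to 0.0408 CPM, taking 3 counts as the limit and covering counting error only. Every count of Areg was even. Among genes with 1 to 10 counts, 71.9% to 78.3% per library had an even count. Counting both mates of a read pair leaves such a pattern, so these counts can stand for fewer fragments. Epgn, the gene of epigen, was as sparse, with 10, 12 and 2 counts in mild cold and 4, 0 and 2 at room temperature, and did not pass the filter either. No difference in Areg or Epgn was detectable at this depth.

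Btc, the betacellulin gene at the end of this run, measured 1.495, 1.39 and 1.71 CPM in the mild cold hearts 1 to 3, against 3.85, 1.01 and 1.03 CPM in the room temperature hearts 1 to 3. Room temperature 1 was above and the other room temperature libraries were below all mild cold libraries. The direction therefore turned with that library, with a log2 fold change of -0.35 (SE 0.54, edgeR adjusted p = 0.764) over all 6 libraries and 0.59 (adjusted p = 0.42) without it. Tgfa, which encodes transforming growth factor alpha, had the same highest library, with 0.618, 1.18 and 1.56 CPM in mild cold and 4.21, 1.20 and 1.62 CPM at room temperature. Its log2 fold change was -1.07 (SE 0.56, edgeR adjusted p = 0.333) and -0.35 (adjusted p = 0.769) without room temperature 1.

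Nrg1 encodes neuregulin-1, the ligand of the cardiac ERBB4 and ERBB2 pair. It had 35, 42 and 68 counts in the mild cold hearts 1 to 3, against 431, 71 and 366 counts in the room temperature hearts 1 to 3. On the scaled level these are 0.569, 1.13 and 1.71 CPM in mild cold against 9.17, 1.70 and 4.98 CPM at room temperature. Room temperature 1 and 3 were above every mild cold library, and room temperature 2 was level with mild cold 3. For Nrg1 the log2 fold change was -2.23 (SE 0.65, edgeR adjusted p = 0.146), and -1.58 (adjusted p = 0.27) without room temperature 1. The DESeq2 Wald test gave an adjusted p of 0.00439 for it, the lowest over all alternatives, which reached 0.402. Counts per gene do not separate the many isoforms of neuregulin-1. The genes with the most similar profile by the same measure were Kif13b (r = 0.996), Scd2 (0.994), Rexo5 (0.993), Ecm1 (0.993) and Ctdspl (0.992). All 5 were highest in room temperature 1 and next highest in room temperature 3, and 4 of the marker sums had this order too, those of adipocytes, Schwann cells, lymphocytes and atrial myocytes. Outside room temperature 1 the atrial sum was nearly all its marker Nppa.

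Per kilobase of merged exons, which allows genes to be set against each other, Hbegf was the most abundant of the 10 transcripts in both groups, at 3.52 ± 0.229 CPM per kilobase in mild cold and 6.99 ± 0.306 at room temperature (SD, n = 3 per group). It made up 77.0 ± 1.83% of the summed level of the 6 ligands in mild cold and 76.3 ± 9.48% at room temperature. The ligand sum was 4.26 to 4.77 CPM per kilobase in mild cold and 8.62 to 10.2 at room temperature, and Hbegf, which was chosen for its change, carried most of it. Ereg came next among the ligands at room temperature (0.861 ± 0.0962 CPM per kilobase), above Nrg1 (0.510 ± 0.362), Btc (0.434 ± 0.362) and Tgfa (0.361 ± 0.252), whose ranges overlapped each other. Without room temperature 1 these means were 0.817 for Ereg, 0.323 for Nrg1, 0.226 for Btc and 0.217 for Tgfa. In mild cold, Ereg (0.356 ± 0.0181) and Btc (0.340 ± 0.0363) lay within each other's spread, and so did Tgfa (0.173 ± 0.0733) and Nrg1 (0.110 ± 0.0554). Areg had the lowest mean in both groups, at counts near the detection limit, though in mild cold 1 it stood above Tgfa and Nrg1. Merged exons can be longer than the transcripts the heart makes, which lowers the value of genes with many alternative exons.

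**Figure D2:**
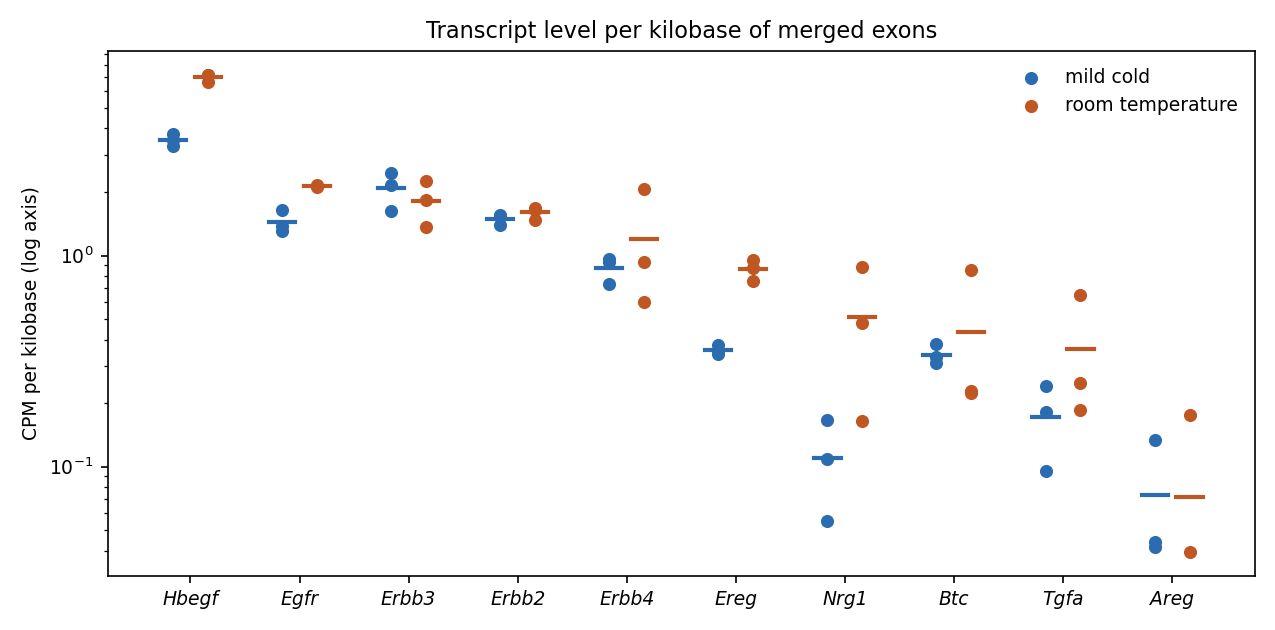
CPM per kilobase of merged exons on a log axis, for mild cold (blue, left) and room temperature (orange, right), in the order of the room temperature means. Points are libraries and lines are means. The room temperature 3 library has no count of Areg and is not drawn there. Hbegf is highest in both groups, and the 4 receptors follow it.

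Among the receptors, Egfr encodes the EGF receptor, the main target of HB-EGF and epiregulin. It measured 15.6, 14.8 and 18.5 CPM in the mild cold hearts 1 to 3, against 24.2, 24.5 and 23.9 CPM in the room temperature hearts 1 to 3. The room temperature libraries were nearly equal, with a coefficient of variation of 1.26%, and all lay above the mild cold libraries. For Egfr the log2 fold change was -0.57 (SE 0.11, edgeR adjusted p = 0.0944) and stayed at -0.57 (adjusted p = 0.131) without room temperature 1. Egfr passed with the DESeq2 Wald test (adjusted p = 0.00194) and with scaling to library totals only (edgeR adjusted p = 0.0447), and over all alternatives its adjusted p ran from 0.00194 to 0.327.

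Erbb2, which encodes the receptor without a ligand of its own, measured 7.27, 8.02 and 8.07 CPM in the mild cold hearts 1 to 3, against 8.57, 7.67 and 8.80 CPM in the room temperature hearts 1 to 3. The groups overlapped, the log2 fold change was -0.10 (SE 0.13, edgeR adjusted p = 0.708) and its 95% interval ran from -0.40 to 0.20. It was the most even of the receptors across the 6 libraries as a whole.

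Egfr and Erbb2 lie on the same chromosome, and the 250 bases before their start sites are shown because the transcript of Egfr differed between the groups without overlap while that of Erbb2 did not. The sequences are from RefSeq on build GRCm38.p6, an earlier build than the GRCm39 of the counts. Capitals mark matches, on either strand, to 5 motifs that were searched. These were the core of the AHR response element (GCGTG), the SMAD box (CAGAC), the TEAD site (CATTCC), the GC box (GGGCGG) and the AP-1 site (TGANTCA), and none of the marked matches overlaps another.
Egfr, chr11:16751953-16752202, plus strand: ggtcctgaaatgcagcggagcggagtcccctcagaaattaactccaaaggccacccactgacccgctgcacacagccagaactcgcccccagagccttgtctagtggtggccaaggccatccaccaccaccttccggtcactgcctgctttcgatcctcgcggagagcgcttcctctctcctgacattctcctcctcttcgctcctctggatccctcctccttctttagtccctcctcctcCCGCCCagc
Erbb2, chr11:98412234-98412483, plus strand: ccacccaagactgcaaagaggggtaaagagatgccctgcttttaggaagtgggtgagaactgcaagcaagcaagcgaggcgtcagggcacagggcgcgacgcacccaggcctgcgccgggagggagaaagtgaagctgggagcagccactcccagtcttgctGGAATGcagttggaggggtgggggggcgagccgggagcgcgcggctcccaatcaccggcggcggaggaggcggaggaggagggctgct
The Egfr window held 1 GC box, on the minus strand and 9 bases before the start, and the Erbb2 window held 1 TEAD site, on the minus strand and 88 bases before the start. A GC box stood in 32.7% and a TEAD site in 12.6% of 32851 windows of this length. The AHR core stood in 28.2%, the SMAD box in 42.2% and the AP-1 site in 6.75% of those windows, and none of these 3 in the windows printed. Of the 10 genes, 6 were searched, and Hbegf, Ereg, Nrg1 and Erbb3 were not among them. Of the windows not printed, that of Btc held 2 AHR cores and that of Areg 1 GC box. That of Tgfa held 1 AHR core, 1 SMAD box and 2 GC boxes, and that of Erbb4 none of the 5 motifs. A match is a description of the letters and says nothing of binding.

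Erbb3, which encodes the partner receptor for neuregulin with a weak kinase, was the member with a positive log2 fold change, 0.20 (SE 0.22, edgeR adjusted p = 0.66, 95% interval from -0.32 to 0.72). It measured 14.9, 9.76 and 13.0 CPM in the mild cold hearts 1 to 3, against 13.6, 11.05 and 8.20 CPM in the room temperature hearts 1 to 3, so the groups overlapped widely. The sign turned with scaling to library totals only, to -0.04. It also turned without the 2 deepest libraries, mild cold 1 and room temperature 3, to -0.11.

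Erbb4, the neuregulin receptor of cardiomyocytes, measured 11.5, 9.06 and 11.9 CPM in the mild cold hearts 1 to 3, against 25.6, 11.5 and 7.45 CPM in the room temperature hearts 1 to 3. Room temperature 1 was far above every other library and room temperature 3 was the lowest of all 6. The log2 fold change of -0.45 (SE 0.41, edgeR adjusted p = 0.587) became 0.20 (adjusted p = 0.736) without room temperature 1.

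**Figure D3:**
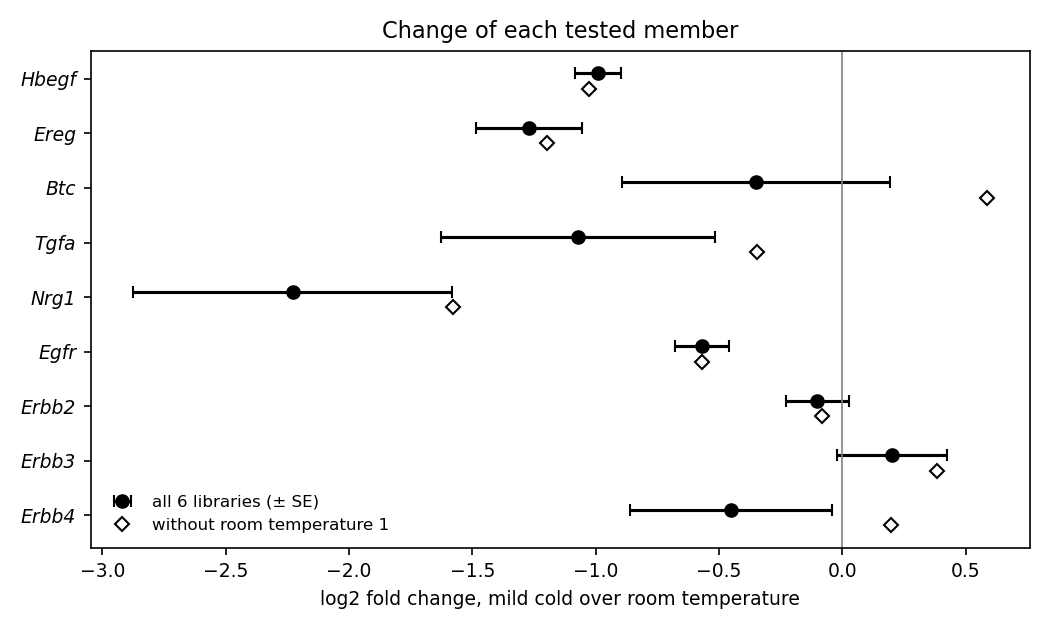
Log2 fold change, mild cold over room temperature, of the 9 tested genes over all 6 libraries (filled, with SE) and without room temperature 1 (open). Hbegf, Ereg, Egfr and Erbb2 keep nearly the same value, Tgfa and Nrg1 move toward 0, and Btc and Erbb4 turn from -0.35 and -0.45 to 0.59 and 0.20.

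The receptors were also set against each other within a library, which takes out the scaling between libraries. Egfr was 22.3, 25.1 and 25.9% of the summed receptor level per kilobase in the mild cold hearts 1 to 3, against 26.4, 33.8 and 36.6% in the room temperature hearts 1 to 3. Erbb3 was 40.0, 31.2 and 34.2% in mild cold and 27.8, 28.7 and 23.7% at room temperature. Neither share overlapped between the groups, Egfr being lower and Erbb3 higher in mild cold. The exact 2-sided permutation test over the 3 against 3 libraries gave p = 0.1 for both, the smallest this design allows. Adjusted over the 4 receptors, this permutation p was 0.2. Shares are parts of the same sum, so a lower share of Egfr raises the others, and these differences are not separate results. The level of Erbb3 per kilobase overlapped, at 1.62 to 2.47 in mild cold and 1.36 to 2.25 at room temperature. The shares of Erbb2 (25.6 ± 3.61% in mild cold, 24.2 ± 4.62% at room temperature, exact permutation p = 0.7, n = 3 per group) and Erbb4 (14.8 ± 0.630% in mild cold, 16.9 ± 7.80% at room temperature, exact permutation p = 0.9, n = 3 per group) overlapped. The room temperature mean of Erbb4 rested on room temperature 1, at 25.5%, and the mean of the other two was 12.5%, below mild cold. That of Erbb2 without room temperature 1 was 26.2%, above mild cold. In level per kilobase, Egfr (2.14 ± 0.0269) was above Erbb2 (1.60 ± 0.115) in every room temperature library. In mild cold Egfr (1.44 ± 0.174) and Erbb2 (1.49 ± 0.0863) were within each other's spread, below Erbb3 (2.08 ± 0.429) and above Erbb4 (0.876 ± 0.125).

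Marker genes of several cell types moved with the groups. The sum of 9 fibroblast markers was 2586 to 3969 CPM in mild cold and 4486 to 5896 CPM at room temperature, and 5 of the 9 were lower in mild cold without overlap. Sums of activated fibroblast (8 genes, 685 to 1100 CPM against 1102 to 1561 CPM) and lymphocyte markers (8 genes, 2.89 to 3.89 CPM against 7.00 to 10.9 CPM) were lower in mild cold too. So was the atrial sum given above, with 2 of its 6 genes lower without overlap. Outside room temperature 1 that sum was nearly all Nppa. Nppa measured 145, 357 and 325 CPM in mild cold 1 to 3, and 604 and 733 CPM in room temperature 2 and 3. Myl7 measured 0.0975, 0 and 0.151 CPM in mild cold 1 to 3, and 0.431 and 0 CPM in room temperature 2 and 3. Sums were lower too for epicardial and mesothelial cells (7 genes, 13.4 to 21.5 CPM against 25.1 to 74.7 CPM), Schwann cells (8 genes, 21.4 to 25.2 CPM against 29.5 to 80.8 CPM) and adipocytes (6 genes, 0.161 to 108 CPM against 115 to 1284 CPM). Ucp1 of the adipocyte list had 0 counts in 4 of the libraries, and no marker was at 0 in all 6. Among tested markers the groups did not overlap, with mild cold lower, in 4 of 8 activated fibroblast and 4 of 7 lymphocyte genes. The same held for 5 of 7 epicardial and mesothelial, 3 of 8 Schwann cell and 4 of 5 adipocyte genes. Over all tested genes the share was 13.1%. As a sum, smooth muscle and pericyte markers were higher in mild cold (7 genes, 1350 to 1473 CPM against 1127 to 1204 CPM). Most of this sum was Rgs5, at 1174, 1289 and 1218 CPM in mild cold against 789, 999 and 951 CPM at room temperature. Without overlap, 2 of the 7 were higher (Rgs5 and Kcnj8) and 3 lower (Myh11, Tagln and Cnn1). Macrophage sums overlapped (540 to 741 CPM in mild cold, 568 to 979 CPM at room temperature), and so did those of cardiomyocytes (45888 to 56898 CPM in mild cold, 31855 to 45982 CPM at room temperature), endothelial cells (1771 to 2471 CPM in mild cold, 1666 to 2390 CPM at room temperature), neutrophils (3.51 to 16.3 CPM in mild cold, 2.79 to 4.64 CPM at room temperature) and hepatocytes (6.78 to 362 CPM in mild cold, 92.4 to 525 CPM at room temperature). Of single genes, all 10 cardiomyocyte markers had the higher mean in mild cold, and 5 of these 10 were higher without overlap. So were 4 of 9 endothelial and 2 of 4 tested neutrophil markers, against 12% of all tested genes. Of the 9 macrophage markers, 2 were lower without overlap. Of the 9 hepatocyte markers, 7 had the higher mean in mild cold and 0 were without overlap. Alb measured 118, 3.43 and 188 CPM in mild cold 1 to 3, against 6.76, 21.1 and 0.136 CPM in room temperature 1 to 3. Cyp2e1 and Hamp had the lower mean in mild cold, and Cyp2e1 measured 21.7, 1.02 and 91.5 CPM against 512, 59.2 and 202 CPM. Hbegf and Egfr did not share the high value of room temperature 1 seen in the adipocyte, atrial, Schwann cell and epithelial sums. Nor did the fibroblast and activated fibroblast sums, both lower in mild cold without overlap, the latter only by 1100 against 1102 CPM. The part of any of these cells in the levels of Hbegf, Ereg, Egfr and the other members was not tested.

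**Figure D4:**
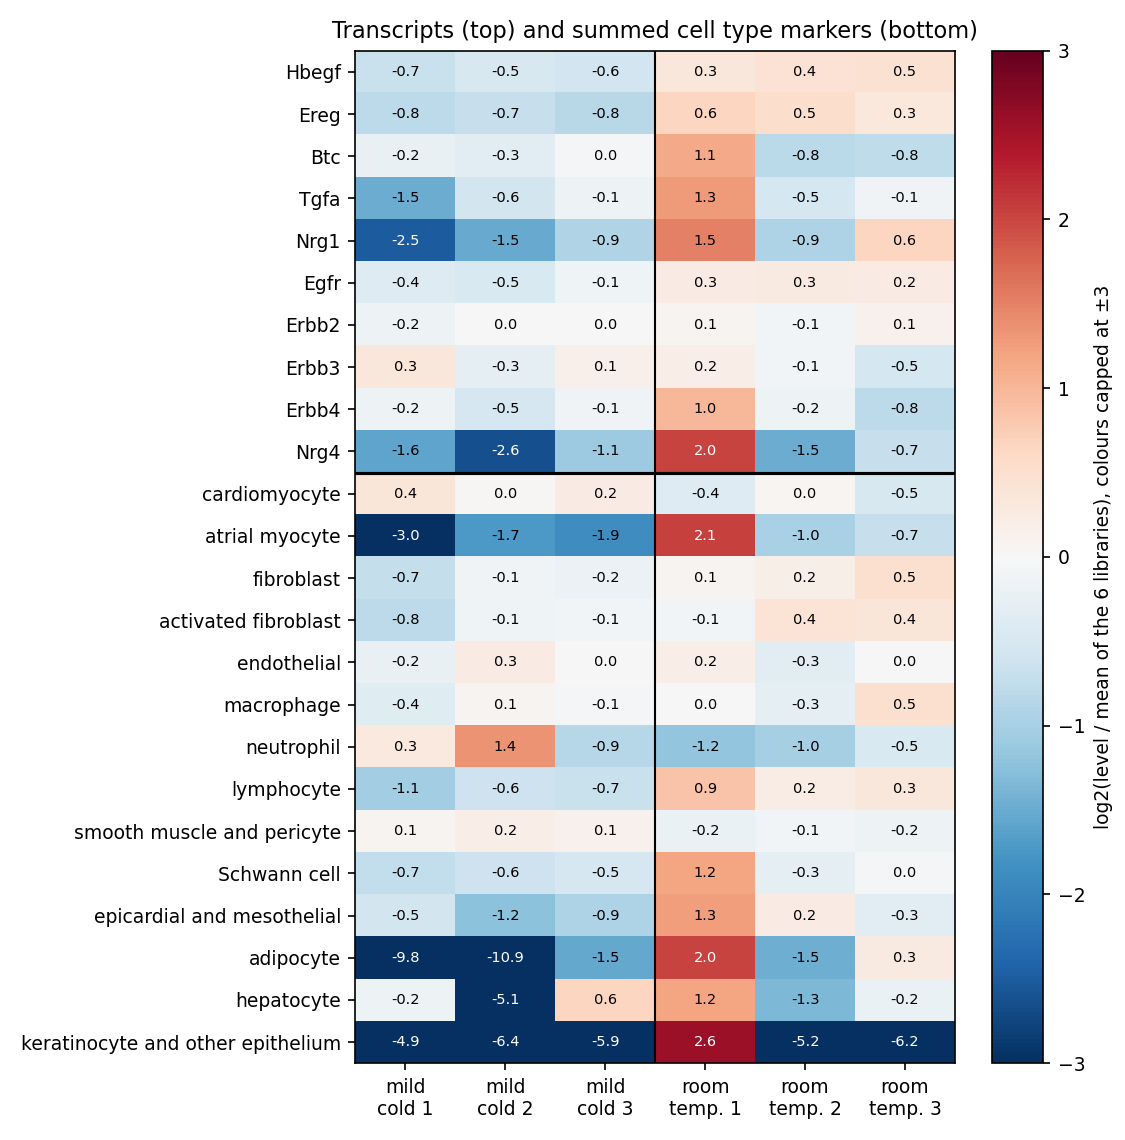
Log2 of the level in each library over the mean of the 6 libraries, for 9 family members and Nrg4 (top, Areg left out because of its count of 0) and for summed markers of 14 cell types (bottom), mild cold left and room temperature right. Room temperature 1 is the highest library for Ereg, Btc, Tgfa, Nrg1, Erbb4 and Nrg4 and for the atrial, Schwann cell, mesothelial, adipocyte, lymphocyte, hepatocyte and epithelial sums, and not for Hbegf. The hepatocyte sum of room temperature 1 is nearly all Cyp2e1.

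The genes that release, transmit or limit these signals showed no call either. Of 77 further pathway genes in 5 lists, 72 were tested and 0 passed edgeR's adjusted p of 0.05, also without room temperature 1. At an unadjusted p under 0.05, 10 were lower and 2 higher in mild cold, against 10.6% lower and 9.11% higher over all tested genes. The groups did not overlap in 11 lower and 5 higher genes, against 13.1% lower and 12% higher over all tested genes. The median log2 fold change was -0.05. The number called by the DESeq2 Wald test was 5 (Adam19, Rhbdf1, Ptpn1, Shc1 and Pik3r1), where that test called 9% of 15715 genes.

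Of 6 other ligand genes, 3 were tested. Nrg4, the gene of neuregulin-4, which is known as a product of brown fat, had 130, 38 and 118 counts in the mild cold hearts 1 to 3, against 1199, 94 and 289 counts in the room temperature hearts 1 to 3. Room temperature 1, the library with 8688 counts of Ucp1, was far above the other 5, and on the CPM scale mild cold 3 was above room temperature 2. The log2 fold change was -2.37 (edgeR adjusted p = 0.216), and -0.61 (adjusted p = 0.585) without room temperature 1. Egf itself was at 7.14 ± 2.39 CPM in mild cold against 5.61 ± 1.26 CPM at room temperature (SD, n = 3 per group, log2 fold change 0.35, edgeR adjusted p = 0.55), and Nrg2 at -0.78 (adjusted p = 0.416). Nrg3 had 0 counts in every library.

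Among 13 sheddases and their partners, 4 were lower at an unadjusted p under 0.05 and 0 higher (median -0.11), against 10.6% and 9.11% of all tested genes. Rhbdf1, which encodes the ADAM17 partner iRhom1, stood at 24.0 ± 0.363 CPM in mild cold against 31.0 ± 1.71 CPM at room temperature (SD, n = 3 per group, log2 fold change -0.37, edgeR adjusted p = 0.107), without overlap. Adam19, a sheddase of neuregulin, stood at 13.4 ± 3.71 CPM in mild cold against 22.5 ± 1.47 CPM at room temperature (-0.75, adjusted p = 0.12), also without overlap. Cd9, a tetraspanin that binds the HB-EGF precursor, had -0.52 (adjusted p = 0.171) and Adam12, which can shed HB-EGF, had -1.22 (adjusted p = 0.237), and -0.46 (adjusted p = 0.528) without room temperature 1. Adam17, the main sheddase of EGF receptor ligands, was at 55.3 ± 3.98 CPM in mild cold against 53.7 ± 5.89 CPM at room temperature. Its log2 fold change was 0.04 (edgeR adjusted p = 0.865), and -0.0452 (adjusted p = 0.888) without room temperature 1. The Adam17 transcript thus showed no difference beyond the spread.

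The 17 feedback inhibitors had a median of -0.10, with 3 lower and 0 higher at an unadjusted p under 0.05, against 10.6% and 9.11% of all tested genes. These were Ptpn1, a phosphatase that acts on the EGF receptor (-0.33, edgeR adjusted p = 0.12), Spred1, an inhibitor of Ras signalling (-0.28, adjusted p = 0.169), and Lrig3, a leucine-rich repeat membrane protein (-0.77, adjusted p = 0.199). The ubiquitin ligase gene Cbl had -0.18 (adjusted p = 0.368). Errfi1, an inhibitor of the EGF receptor that is induced by its signal, was uneven, with 7385, 1051 and 2128 counts in the mild cold hearts 1 to 3, against 2905, 2508 and 3946 counts in the room temperature hearts 1 to 3. The high library, mild cold 1, set its sign, with a log2 fold change of 0.20 (adjusted p = 0.841) over all libraries and -0.51 without mild cold 1.

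The 22 adaptors and kinases had a median of 0.04, with 2 higher and 1 lower at an unadjusted p under 0.05, against 9.11% and 10.6% of all tested genes. Pik3r1, the regulatory subunit of phosphoinositide 3-kinase, was at 242 ± 70.3 CPM in mild cold against 156 ± 14.9 CPM at room temperature (SD, n = 3 per group, log2 fold change 0.63, edgeR adjusted p = 0.166), Plcg1, phospholipase C gamma, at 0.27 (adjusted p = 0.201), Hras at 0.32 (adjusted p = 0.269) and the adaptor Shc1 at -0.31 (adjusted p = 0.12). Of the 19 ERK response genes, 17 were tested, with a median of -0.10 and 1 lower at an unadjusted p under 0.05, against 10.6% of all tested genes. This was Phlda1 (-0.60, adjusted p = 0.238), where 33% of the exon bases are shared with another gene. Dusp4, a phosphatase of ERK in the nucleus, had -1.07 (adjusted p = 0.259), and -0.44 (adjusted p = 0.586) without room temperature 1. Dusp6, its counterpart in the cytoplasm, stood at 31.2 ± 2.47 CPM in mild cold against 33.4 ± 1.07 CPM at room temperature (-0.10, adjusted p = 0.601). Ccnd1, which encodes cyclin D1, had 0.16 (adjusted p = 0.419), with 23.4% of its exon bases shared. Egr1, an immediate early factor, had 6162, 503 and 508 counts in the mild cold hearts 1 to 3, against 990, 701 and 1242 counts in the room temperature hearts 1 to 3. Mild cold 1 alone was high, and the log2 fold change of 1.21 (adjusted p = 0.42) became -0.47 without it. Fos was at 0.02 (adjusted p = 0.986), at 0.68 without room temperature 1 and at -0.30 without mild cold 1.

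**Figure D5:**
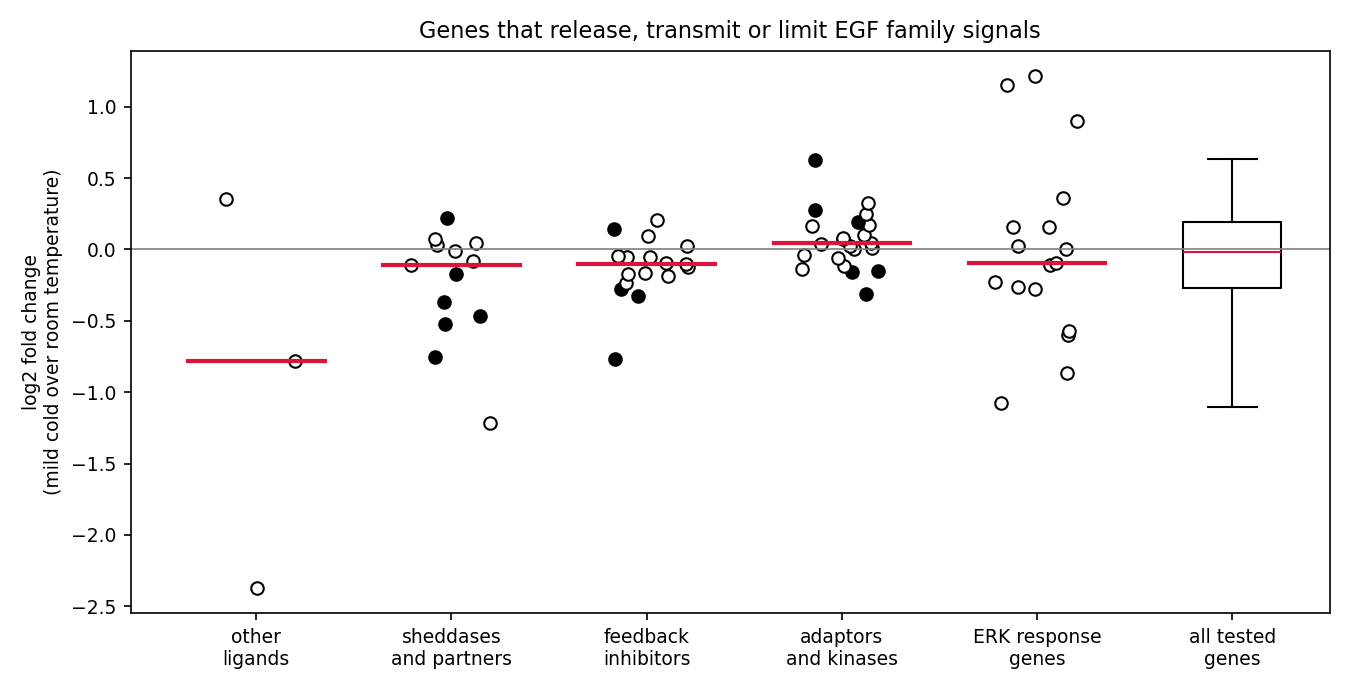
Log2 fold change, mild cold over room temperature, of the tested genes in 5 pathway lists, filled where the groups do not overlap, with the median in red. The box at the right gives the quartiles of all 16757 tested genes, with whiskers at the 5th and 95th percentiles. List medians run from -0.78 for the 3 other ligands to 0.04 for adaptors and kinases.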

How the data were processed

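The deposited values are the authors' unnormalized read counts for each gene, made with featureCounts 2.0.3 on build GRCm39 per the submitters' processing notes. For the aligner, annotation release, strand setting and pair handling, the entry is: not given in the sources used here. Per the labels' protocols, libraries were made from TRIzol RNA after mRNA enrichment. Symbols, exon lengths and overlaps came from GENCODE M21, matched on the ID without its version for 55141 of 55401 IDs. Groups follow the sample titles.

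The counts were tested with edgeR 4.0.16 (R 4.3.3) by its 2-sided quasi-likelihood test with group only, its default expression filter and TMM scaling. Adjustment was by Benjamini-Hochberg over all 16757 genes tested, at a threshold of 0.05. Alternatives were other scalings, filters and thresholds, DESeq2 1.42.0, limma-voom (limma 3.58.1), robust estimation, the replicate number as a block and libraries left out. Shares of receptors were compared by an exact permutation test. No pair of libraries held the same values.

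Members and lists were chosen with earlier results of these data known. The genes named were all 10 members, up to 4 genes of each pathway list by smallest p, Errfi1, Adam17, Egf, Dusp6 and Fos, and the 5 genes most like Hbegf and Nrg1. Epgn, Nrg3 and single marker genes were named after their values were seen.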

Additional observations from a re-analysis of the deposited data

How the results depend on the processing

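Hbegf, Ereg, Tgfa, Nrg1, Egfr and Erbb2 kept a negative log2 fold change under all 17 alternatives run for each. The number of genes past the threshold was 0, and it was 356 with library totals only (10 higher, 346 lower), 184 without an expression filter, 1414 with the DESeq2 Wald test, 396 at a threshold of 0.1, 1 with the replicate block and between 0 and 2 with each library left out. Members past it, Hbegf apart, were 2 with library totals only, 3 with the DESeq2 Wald test and 2 at a threshold of 0.1. Pathway genes past it were 3 with library totals only and 5 with the DESeq2 Wald test. Library totals only shifted the whole distribution, to a median of -0.28 over tested genes, and there Egfr stood at -0.82 and Hbegf at -1.25.

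Signs turned as follows. With library totals only the log2 fold change was -0.0447 for Erbb3, -0.21 for Adam17, -0.10 for Ccnd1, -0.0268 for Errfi1 and -0.25 for Fos. With limma-voom it was 0.0034 for Btc and -0.0549 for Errfi1, and with the replicate block -0.0372 for Errfi1. Without the 2 deepest libraries, mild cold 1 and room temperature 3, it was -0.11 for Erbb3, -0.0257 for Egf, -0.52 for Egr1, -0.57 for Errfi1 and -0.48 for Fos. With a single library left out, Btc ran from -0.66 to 0.59, Erbb4 from -0.78 to 0.20, Adam17 from -0.0452 to 0.12, Egr1 from -0.47 to 1.65, Errfi1 from -0.51 to 0.57 and Fos from -0.30 to 0.68. The positive values of Btc and Erbb4 came without room temperature 1, and the negative ones of Egr1 and Errfi1 without mild cold 1. Fos was negative in the absence of mild cold 1 and in that of room temperature 2 or 3. The cause was not tested.

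Deviations from the group mean of libraries with the same number correlated at 0.118, -0.135 and -0.00718 over genes, so the number was not taken to pair them, and the block called 0 members. Depth limited Areg and Epgn.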
